A study of Mus musculus with 4 samples.

Results

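The EGR, KLF and NR4A transcription factors and Myc were followed as 10 genes: Egr1, Egr2, Egr3, Klf2, Klf4, Klf6, Nr4a1, Nr4a2, Nr4a3 and Myc. They were found on the arrays as the non-control probes whose RefSeq accession belongs to one of these symbols. That gave 14 of 41174 probes, for 10 of the 18217 genes that could be named. Both RNAs on each array came from microvascular smooth muscle cells of male C57BL6 mice labelled as Rap1a knockout, so both groups carry the deletion. Rap1a encodes a Ras-related GTPase. One group carried an empty Shuttle vector (here called vector) and the other a Shuttle vector named RapCA, which the labels do not spell out. Viral transduction ran overnight without serum as the cells were plated. It was followed by 48 h in 0.5% serum, after culture in 10% serum. Neither the age of the mice nor the promoter of the vector is given. The 4 two-colour arrays each held vector RNA in Cy5 and RapCA RNA in Cy3. No array has the dyes exchanged, so the effects of dye and vector cannot be told apart. Biological replicates are numbered 1 to 4 in the labels, with no word on separate cultures or mice, and p-values measure only the spread between these arrays.

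These genes are best known as early responders. EGR factors bind GC-rich DNA through zinc fingers and are switched on within minutes of serum, stretch or growth factor signals, through SRF and ETS factors on their promoters. KLF factors bind GC-rich and CACCC sequences. Klf2 and Klf4 keep vascular cells quiescent, and Klf4 also represses contractile genes in dedifferentiating smooth muscle. NR4A proteins are orphan nuclear receptors whose activity follows their amount, and cyclic AMP raises their transcripts through CREB bound at CRE sequences. Myc binds E-box DNA with its partner Max and drives growth genes.

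The arrays themselves give the limits for these probes. In the channel labelled RapCA, 57.7% to 62.9% of probes were bright enough to stand well above background. In the vector channel 51.3% were on replicate 1, and 60.1% to 61.9% on the rest. Replicate 1 stood apart. Over 23495 probes its ratios had correlations of 0.69 to 0.78 with replicates 2, 3 and 4, whose own pairwise values were 0.93 to 0.98, as a description across probes. Rap1a was looked at as a check of the labels, which it could not settle. Its probe was measured in both channels of these knockout cells and was lower in the channel labelled RapCA (log2 ratio -1.07 ± 0.44, SD, n = 4; adjusted p = 0.00205 by limma). Whether the probe lies in the deleted part, or in the sequence that the vector carries, is not known here. Every direction below is therefore that of the channels as labelled. Were the labels exchanged, every sign would turn, and higher and lower would change places in each count and ranking. Of the 8 smooth muscle markers on the array, 6 were well above background in each channel on every array, and Des and Synpo2 in neither. Their summed signal was 311043 to 341244 in the RapCA channel and 144164 to 187372 in the vector channel. The 6 fibroblast markers (5 measured, Lum in neither channel) summed to 311401 to 381884 and 54242 to 87983, and the 6 pericyte markers (Rgs5 and Abcc9 in neither channel) to 27782 to 31847 and 9215 to 13034. These 3 sums were higher in the RapCA channel on every array, but not each gene was. Among tested markers 3 of 6 for smooth muscle, 4 of 5 for fibroblasts and 3 of 4 for pericytes were called higher. By brightest probe, 28.9% of all genes were. Myh11, Cnn1, Smtn and Pdgfra were not called, and the pericyte marker Kcnj8 was lower at -0.40 ± 0.08. The part of these markers in the results below was not tested. In bulk RNA, fewer cells of a type and less RNA per cell cannot be told apart. Endothelial cells are a usual source of Klf2. Of 8 endothelial markers, Pecam1, Cdh5, Tie1 and Emcn were above background on no array in either channel. Of those tested, Vwf was lower at -2.03 ± 0.16 and Kdr at -0.75 ± 0.40, while Tek was higher at 1.16 ± 0.23. In the vector channel Tek was well above background on only 2 of 4 arrays, so its ratio rests on dim signal there. The summed signal of the 8 was 806 to 820 in the RapCA channel and 1016 to 1186 in the vector channel, and its part in the Klf2 result was not tested.

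The sequence before the start site is shown for Nr4a1 and Nr4a2, the pair that was lower, and for Egr2 and Klf2. Egr2 was higher, and Klf2 was higher by the dimmer of its 2 probes only. Each is 250 bases ending at the start, from RefSeq, and 7 of the 10 genes had an entry (Egr2 with 5 starts, of which start 3 is shown). Egr1, Egr3 and Myc had no entry. Capitals mark the CRE core TGACG on either strand, the CArG box (bound by SRF) and the MEF2 box.
Nr4a1 (GRCm38.p6, chr15:101266596-101266845, + strand): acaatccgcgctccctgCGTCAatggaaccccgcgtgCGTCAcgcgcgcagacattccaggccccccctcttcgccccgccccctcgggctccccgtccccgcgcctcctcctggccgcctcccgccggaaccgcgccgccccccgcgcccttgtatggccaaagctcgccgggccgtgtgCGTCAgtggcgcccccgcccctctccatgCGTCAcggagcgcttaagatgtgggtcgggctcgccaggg
Nr4a2 (GRCm38.p6, chr2:57124004-57124253, - strand): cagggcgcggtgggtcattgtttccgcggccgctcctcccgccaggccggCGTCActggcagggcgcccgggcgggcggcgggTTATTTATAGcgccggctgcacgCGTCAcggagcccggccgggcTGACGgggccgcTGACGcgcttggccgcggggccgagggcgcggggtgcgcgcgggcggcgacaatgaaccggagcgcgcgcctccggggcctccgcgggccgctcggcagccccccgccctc
Egr2 (GRCm38.p6, chr10:67537619-67537868, + strand): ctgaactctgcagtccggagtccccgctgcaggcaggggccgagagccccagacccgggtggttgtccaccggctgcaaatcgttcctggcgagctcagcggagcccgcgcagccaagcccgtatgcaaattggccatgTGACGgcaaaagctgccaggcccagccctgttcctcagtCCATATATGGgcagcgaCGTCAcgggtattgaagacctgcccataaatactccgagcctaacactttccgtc
Klf2 (GRCm38.p6, chr8:72318812-72319061, + strand): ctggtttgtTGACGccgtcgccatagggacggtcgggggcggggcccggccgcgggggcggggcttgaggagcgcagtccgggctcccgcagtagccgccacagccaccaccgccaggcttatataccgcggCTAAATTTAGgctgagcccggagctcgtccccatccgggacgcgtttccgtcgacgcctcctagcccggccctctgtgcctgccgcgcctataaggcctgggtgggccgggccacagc
The Nr4a1 sequence held 4 CRE cores, all on the strand opposite to the gene. Nr4a2 also held 4, on either strand, beside a MEF2 box, and Nr4a3 held 4. At least 4 such cores stood in 0.137% of all 32851 start windows of this length, and at least 1 in 17.8%. Among the 7 genes with an entry, 0 held the full site TGACGTCA, which 1.55% of windows did. The printed Egr2 sequence held a CArG box 72 to 63 bases before the start, a motif present in 1.47% of windows, and 2 CRE cores. It is shown because it holds both motifs: of the 5 Egr2 starts, start 1 held neither of them, start 2 held the CArG box alone, and starts 4 and 5 held both. Klf2 held 1 CRE core and 1 MEF2 box, the latter 118 to 109 bases before the start and present in 2.92% of windows. The EGR site GCGGGGGCG, found in 2.57% of windows, was present in Klf2, Klf4 and Nr4a1 and partly overlaps the GC box GGGCGG, which 32.7% of windows held. These are matches of letters, and the files hold no measure of binding.

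The EGR and NR4A genes bright enough to test differed in opposite directions between the channels, Egr2 by a small amount and not called under every setting. In the RapCA channel Egr1 and Egr2 were higher, whereas Nr4a1 and Nr4a2 were lower. Klf2 was higher by 1 of its 2 probes, Klf4 was slightly lower, and all 3 Myc probes were slightly lower. Of the 14 probes, 12 were bright enough to test, with 1 channel or both well above background on each of the 4 arrays. Of these, 4 were called higher and 6 lower (limma, Benjamini-Hochberg adjusted p under 0.05 over 23495 probes). That is 83.3% of 12, beside 49.6% of all probes tested. Probes are counted here, not genes, and Myc gave 3 of the 6 lower calls. The brighter probes of Klf2 and Klf6 were not called (limma adjusted p = 0.434 and 0.917). Of all genes taken by their brightest probe, 53.8% were called. By direction, 26.4% of all probes were called higher and 23.2% lower. A mean change of at least 2-fold was seen for 4 of the 12 probes (Egr1, 1 Klf2 probe, Nr4a1 and Nr4a2) and for 13.1% of all probes. Levels in the 2 channels did not overlap over the 4 arrays for 10 of the 12, against 42.6% of all probes.

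**Figure D1:**
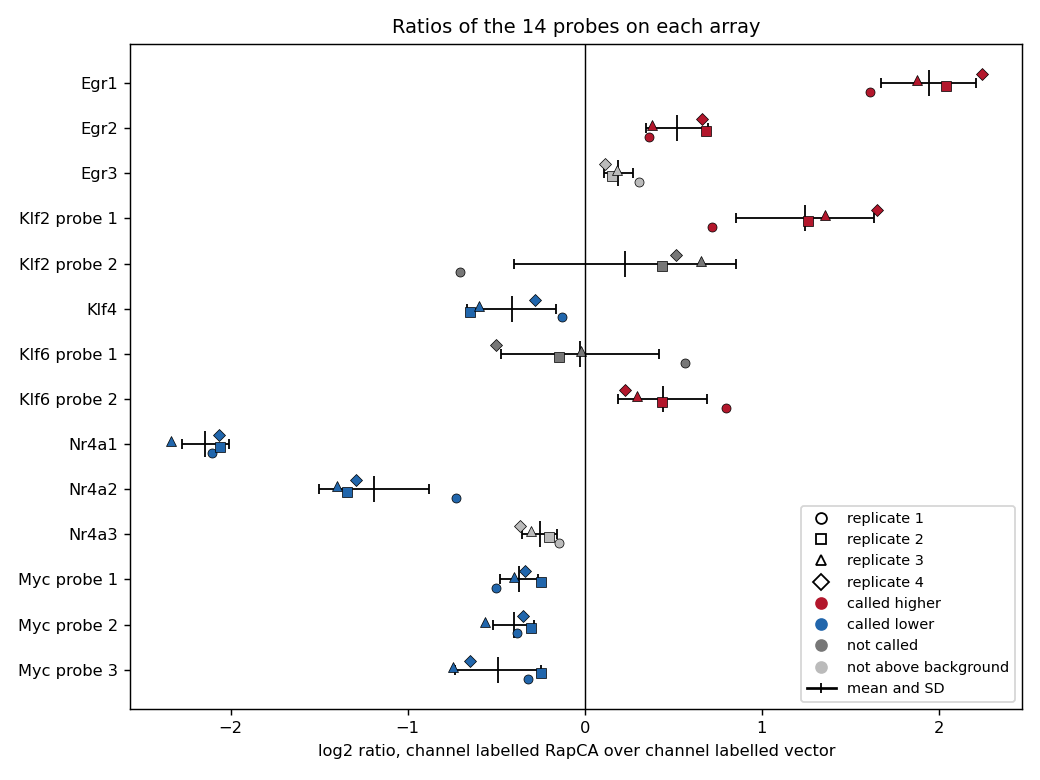
Log2 ratio (RapCA channel over vector channel) for the 14 probes, with 1 symbol per array and the mean and SD over 4 arrays. Egr1 lies near 1.94 and Nr4a1 near -2.14. Replicate 1 lies outside the range of the other 3 arrays for most probes. Relative to the range of the probe, its gap is widest for Nr4a2 and for Klf2 probe 2 (A_52_P442031, with A_51_P144264 as probe 1). Klf6 probes 1 and 2 are A_51_P451346 and A_51_P503162.

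Egr1, the founding EGR factor and a direct responder to MAP kinase signals, had the highest ratio of the member probes, as labelled. Its normalized log2 signal was 9.50, 8.83, 9.02 and 8.84 in the vector channel of replicates 1 to 4, and 11.11, 10.87, 10.9 and 11.08 in the RapCA channel. Every RapCA value lay above every vector value. The ratios were 1.61, 2.04, 1.88 and 2.24, a mean of 1.94 ± 0.27 (SD, n = 4; limma adjusted p = 5.44e-05), or 3.85-fold higher, and 98.8% of tested probes had a lower ratio. The call held under all 13 alternative settings, over a range of 1.78 to 2.06.

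Egr2, also called Krox20 and known from myelinating glia, was dim and changed less. Its signal was 8.41, 8.12, 8.38 and 8.16 in the vector channel and 8.77, 8.80, 8.76 and 8.82 in the RapCA channel. The channels did not overlap, and the RapCA values were nearly equal on all arrays. The mean ratio was 0.52 ± 0.17 (SD, n = 4; limma adjusted p = 0.00623), 1.44-fold higher. The call was lost with median centring of each array in place of the loess fit (ratio 0.39, adjusted p = 0.162) and without replicate 2 (0.47, adjusted p = 0.0544). The Egr1 ratio exceeded that of Egr2 on all 4 arrays, by 1.42 ± 0.15 (exact sign-flip permutation p = 0.125, two-sided, the smallest that 4 arrays allow).

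Egr3, a relative of Egr2 studied mostly in muscle spindles and lymphocytes, was not well above background on any array in either channel. Its net signal was 7 to 13 in the RapCA channel and 3 to 15 in the vector channel, so no fold is given.

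Proteins that act with EGR factors were called in both directions. Nab2, a corepressor that binds EGR proteins and is itself an EGR-induced gene, was higher at 0.87 ± 0.32 (limma adjusted p = 0.0020). Its relative Nab1 was lower at -0.42 ± 0.19 (adjusted p = 0.0171) by the brighter of 2 probes, and that call was lost with median centring and without replicate 2 or 3 (adjusted p = 0.152, 0.120 and 0.113). Of 4 EGR partners on the array, Egr4 and Wt1 were not tested.

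**Figure D2:**
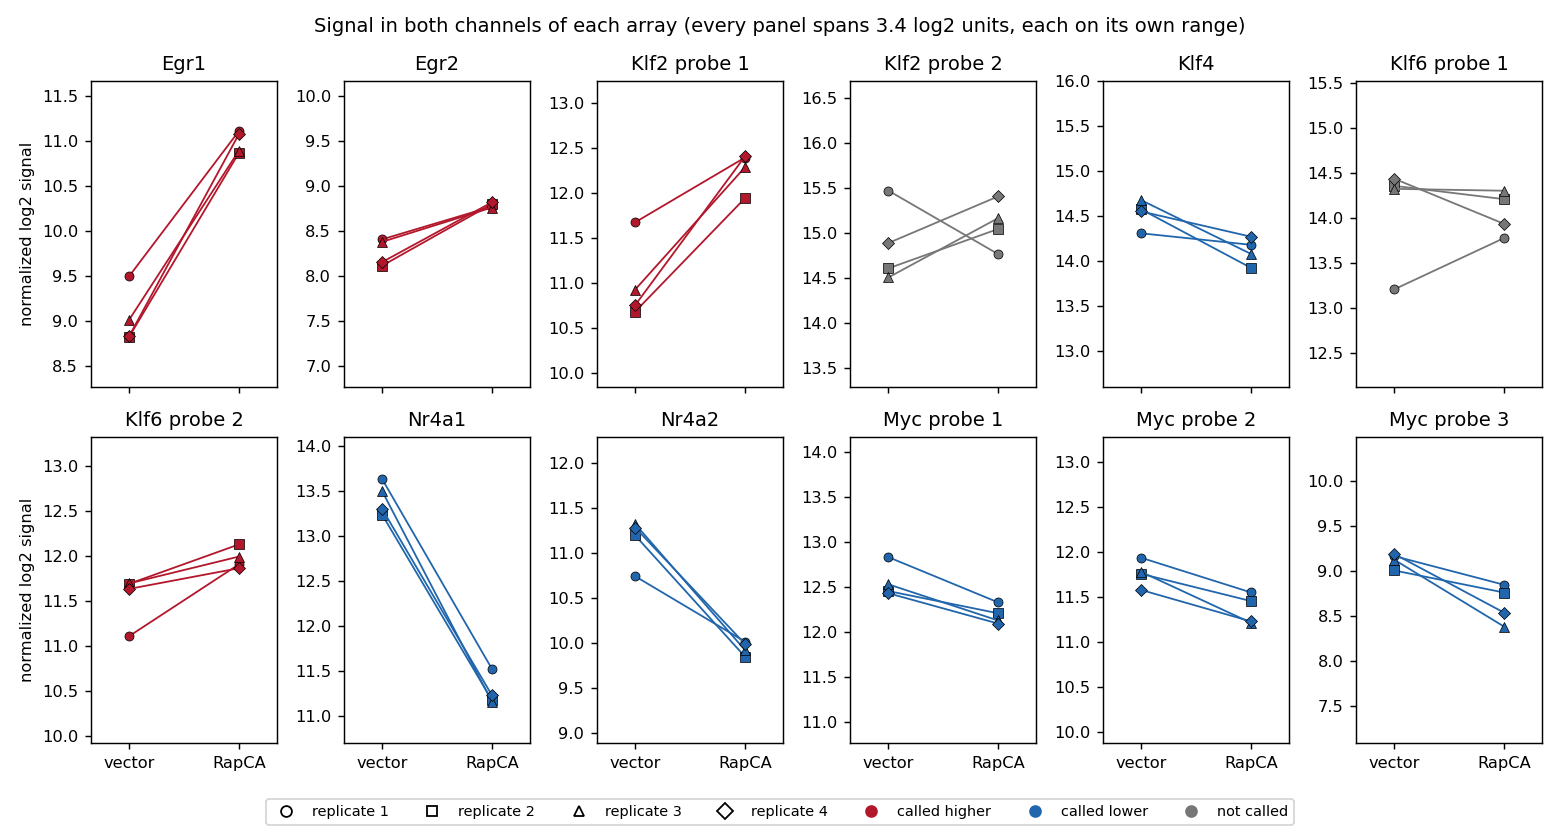
Normalized log2 signal (vertical axis) in the vector and RapCA channels for each of the 12 tested probes, with 1 line per array and every panel spanning 3.4 log2 units. Lines for Egr1 and Nr4a1 run steeply in opposite directions on all arrays, while those of Klf2 probe 2 and Klf6 probe 1 cross.

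Nr4a1 had the lowest ratio of the member probes, as labelled. Nr4a1, also called Nur77, is an orphan receptor that restrains smooth muscle growth in injured vessels. Its signal was 13.63, 13.24, 13.50 and 13.30 in the vector channel and 11.52, 11.18, 11.16 and 11.23 in the RapCA channel. Every vector value lay above every RapCA value. The ratios were -2.11, -2.06, -2.34 and -2.07, a mean of -2.14 ± 0.13 (SD, n = 4; limma adjusted p = 2.23e-05). The RapCA signal was 22.6% of the vector signal, and 0.66% of tested probes had a lower ratio. The call held under all 13 alternatives, from -2.43 to -2.08.

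Nr4a2, or Nurr1, a receptor needed for midbrain dopamine neurons and also induced in vascular cells, fell less. Its signal was 10.74, 11.19, 11.32 and 11.28 in the vector channel and 10.01, 9.85, 9.92 and 9.99 in the RapCA channel. The lowest vector value was that of replicate 1, and it still lay above every RapCA value. The ratios were -0.73, -1.35, -1.40 and -1.29, a mean of -1.19 ± 0.31 (SD, n = 4; limma adjusted p = 0.000483), or 43.8% of the vector signal. Without replicate 1 the mean was -1.35. The call held under all 13 alternatives. Nr4a1 was lower than Nr4a2 in ratio on all 4 arrays, by -0.95 ± 0.30 (exact sign-flip permutation p = 0.125, two-sided).

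Nr4a3, or NOR-1, was not well above background on any array in either channel. Its net signal was -2 to 9.5 in the RapCA channel and 21.5 to 25 in the vector channel, which gives no fold.

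The KLF genes were called in different directions. Klf2, a shear- and statin-induced factor of endothelium, had 2 probes of 1 accession that disagreed. The probe A_51_P144264 gave 11.68, 10.69, 10.93 and 10.76 in the vector channel and 12.40, 11.95, 12.29 and 12.41 in the RapCA channel. These values did not overlap, although the vector value of replicate 1 came near the lowest RapCA value. Its ratios were 0.72, 1.26, 1.36 and 1.65, a mean of 1.25 ± 0.39 (SD, n = 4; limma adjusted p = 0.000704), 2.37-fold higher, with the call held under all 13 alternatives. The other probe, A_52_P442031, was the brighter. It gave 15.47, 14.60, 14.50 and 14.88 in the vector channel and 14.76, 15.04, 15.16 and 15.40 in the RapCA channel.

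On replicate 1 that second probe ran against the other arrays. Its ratios were -0.71, 0.44, 0.66 and 0.52, a mean of 0.23 ± 0.63 that was not called (limma adjusted p = 0.434, 95% interval -0.30 to 0.75). Without replicate 1 it was called higher at 0.54 (adjusted p = 0.00105). With array weights it was called at 0.56 (adjusted p = 2.27e-05), and with median centring its sign turned, at -0.335 (adjusted p = 0.206). The first probe exceeded the second on all 4 arrays, by 1.02 ± 0.33 (exact sign-flip permutation p = 0.125, two-sided). Which part of the transcript each probe reads is not known here.

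Klf4, a reprogramming factor that in smooth muscle opposes the contractile programme, gave 14.31, 14.58, 14.68 and 14.55 in the vector channel and 14.18, 13.93, 14.08 and 14.27 in the RapCA channel. The highest RapCA value came close to the lowest vector value but did not reach it. The mean ratio was -0.41 ± 0.25 (SD, n = 4; limma adjusted p = 0.0272), or 75.1% of the vector signal. The call was lost without replicate 2, 3 or 4 (adjusted p = 0.160, 0.148 and 0.0536), and with median centring the ratio was -0.90.

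Klf6, a broadly expressed factor induced by injury, also had probes that differed. The probe A_51_P503162 was higher at 0.44 ± 0.25 (SD, n = 4; limma adjusted p = 0.0217), with ratios of 0.80, 0.44, 0.30 and 0.23. Its call was lost with median centring (0.20, adjusted p = 0.624), by the ratios of the scanner software (0.37, adjusted p = 0.0843) and without replicate 2 or 3 (adjusted p = 0.0931 and 0.0627). The brighter probe A_51_P451346 was not called, at -0.03 ± 0.45 (adjusted p = 0.917, 95% interval -0.43 to 0.38). Its sign was positive on replicate 1 and negative on the other 3. The 2 probes differed in the same direction on all arrays, by -0.47 ± 0.23 (exact sign-flip permutation p = 0.125, two-sided). No direction for Klf6 rests on both probes.

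Other KLF and SP factors were also called in both directions. Of 15 tested, 3 were higher and 5 lower, beside 28.9% and 24.9% of all 12393 genes by their brightest probe, with a median log2 ratio of 0.15 against 0.02 for all genes. With median centring that median was -0.04, with 0 called higher and 4 lower. Klf5, a growth-promoting factor of smooth muscle, was lower at -1.59 ± 0.13 (limma adjusted p = 5.12e-05). Klf13 and Klf7 were higher at 0.80 ± 0.09 and 0.74 ± 0.21, neither of them called with median centring (adjusted p = 0.0808 and 0.151). Sp8 was not well above background in the RapCA channel on any array and passed the filter through the vector channel alone. Its ratio of -0.99 ± 0.26 rests on that dim signal, so no fold is given. With both channels required above background Sp8 was not tested. Of the 13 factors tested there, 2 were higher and 5 lower.

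Myc, the most studied growth regulator of the set, was lower by a small amount on all 3 probes. The probe A_51_P102096 gave 12.83, 12.45, 12.53 and 12.43 in the vector channel and 12.33, 12.20, 12.12 and 12.09 in the RapCA channel, with no overlap. The mean ratios of this probe, A_52_P108346 and A_52_P278549 were -0.37 ± 0.11, -0.40 ± 0.12 and -0.49 ± 0.24 (limma adjusted p = 0.0174, 0.0134 and 0.0135). Each probe had a ratio below 0 on all 4 arrays. The 3 probes read 1 gene on the same arrays and are not separate replicates. The RapCA signal was 71.2% to 77.3% of the vector signal. The mean differences between probes were 0.03 to 0.12, with SDs of 0.12 to 0.25 (exact sign-flip permutation p of 0.500 to 0.625, two-sided). With 4 arrays this p cannot go below 0.125, so the test cannot decide whether the probes agree.

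The Myc calls were close to the threshold. Without replicate 3 none of the 3 probes passed (adjusted p = 0.109, 0.115 and 0.0927). Without replicate 2 A_51_P102096 and A_52_P108346 did not (0.0705 and 0.0640), without replicate 4 A_52_P278549 did not (0.0569), and with median centring A_52_P108346 and A_52_P278549 did not (0.0794 and 0.137). The direction was the same under every setting.

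**Figure D3:**
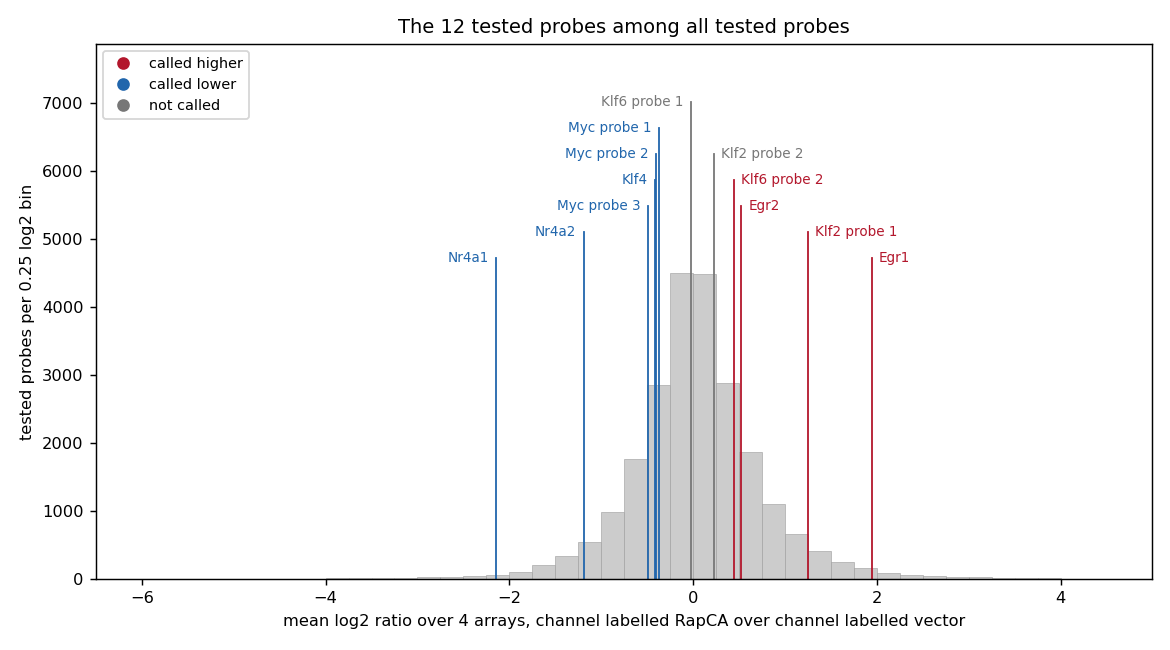
Number of tested probes (vertical axis) by mean log2 ratio in bins of 0.25, with the 12 member probes as lines. Egr1 and Nr4a1 lie in the tails of the distribution, and Myc, Klf4, Klf6, Egr2 and Klf2 probe 2 within its body.

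Genes of the Myc response, which serve ribosome assembly, nucleotide and polyamine synthesis, were mostly lower in the RapCA channel. Of 24 tested, 17 were lower and 1 higher, beside 24.9% lower of all genes, with a median of -0.67, or -0.997 with median centring, which left 14 called lower and 1 higher. Odc1, the rate-limiting enzyme of polyamine synthesis, was at -1.27 ± 0.31 (limma adjusted p = 0.000359). Ldha, which makes lactate, was at -1.23 ± 0.03 and Nme1, a nucleoside diphosphate kinase, at -0.95 ± 0.15. Ccnd2, encoding cyclin D2, was higher at 1.86 ± 0.17. The list was drawn from general knowledge of Myc, but with earlier results of these data known. Many of its genes also rise in any growing cell.

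Partners and antagonists of Myc were called in both directions. In the Myc and Max network 5 of 13 were higher and 2 lower, beside 28.9% and 24.9% of all genes. The median was 0.09, or -0.13 with median centring, where 2 were higher and 3 lower. Mxd4 and Mxd1, which compete with Myc for Max, were higher at 1.43 ± 0.58 and 1.42 ± 0.17 (limma adjusted p = 0.00144 and 8.88e-05), and Mxi1, of the same family, at 0.70 ± 0.09. The Mxi1 call was lost with median centring (adjusted p = 0.163), and Mxd1 was called by 1 of 2 probes. Mxd3, also of that family, went the other way at -0.80 ± 0.40 (limma adjusted p = 0.00525), lower by 2 of 2 probes. Mycn, the neuronal relative of Myc, was lower at -1.33 ± 0.11. Max itself was at 0.09 ± 0.10 and was not called (adjusted p = 0.451). Mxd3 and Max are named for their role, not by p.

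Nuclear receptors, the wider family of NR4A, and their corepressors were called in both directions. Of 25 tested, 12 were higher and 3 lower, beside 28.9% and 24.9% of all genes, with a median of 0.29, which was 0.17 with median centring, where 6 were higher and 4 lower. Some were dim in 1 channel. With both channels required above background, 10 of 19 were higher and 2 lower, with a median of 0.40. The thyroid hormone receptor gene Thra was higher at 1.90 ± 0.25 (limma adjusted p = 5.44e-05), and the retinoic acid receptor gene Rarg at 1.39 ± 0.35. Pparg, the receptor that drives fat cell formation, was lower at -1.78 ± 0.11. Rxra, which encodes a dimer partner of Nr4a1 and Nr4a2, was higher at 1.05 ± 0.28 by 1 of 2 probes and is named for that role, after its value was seen.

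**Figure D4:**
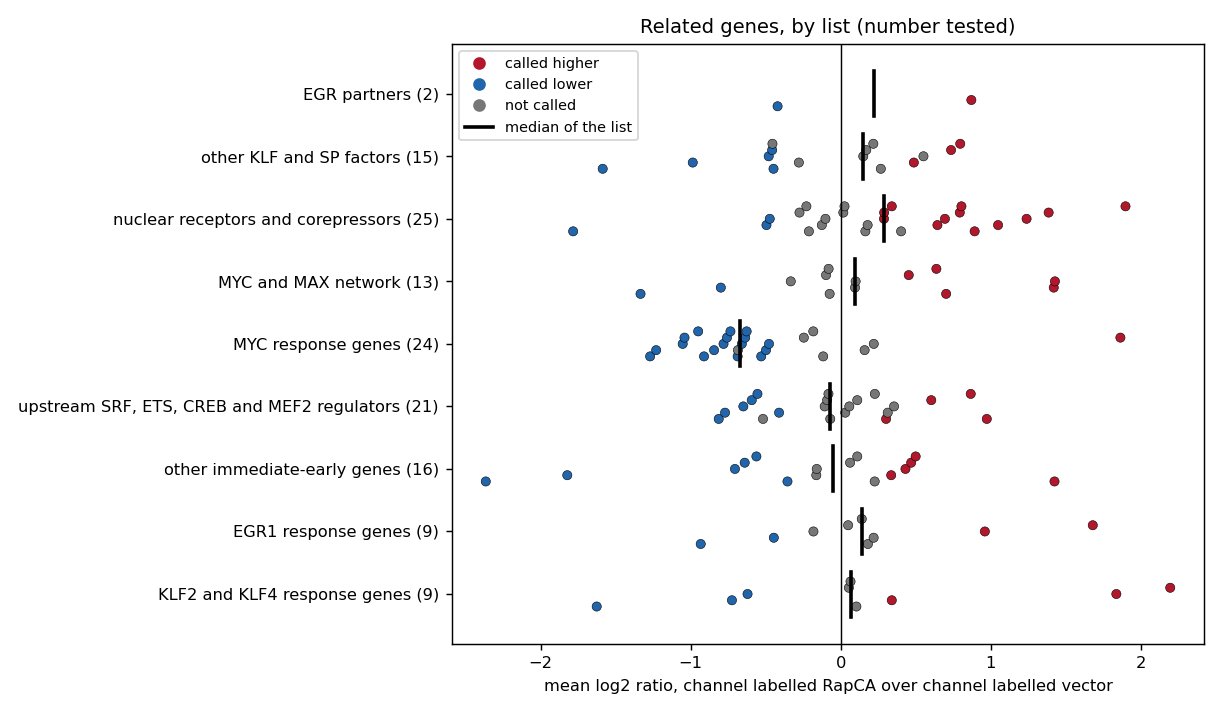
Mean log2 ratio (horizontal axis) of 134 related genes by list, each by its brightest probe, coloured by call, with the median of each list as a bar. Most genes of the Myc response lie below 0, and the other lists spread to both sides.

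Regulators upstream of these genes were called in both directions. Of 21 SRF, ETS, CREB and MEF2 factors and their kinases tested, 4 were higher and 6 lower, beside the same 28.9% and 24.9% of all genes, with a median of -0.07, or -0.27 with median centring, where 2 were called each way. Map2k5 and Mapk3, kinases of the ERK5 and ERK cascades, were higher at 0.97 ± 0.17 and 0.87 ± 0.24 (limma adjusted p = 0.000409 and 0.00114). Crem, a CREB relative with repressor forms, was lower at -0.77 ± 0.17 by 5 of 5 probes, though not with median centring (adjusted p = 0.0528). Mrtfb, an actin-sensing SRF coactivator, was lower at -0.65 ± 0.26. These are transcript levels, and phosphorylation, which sets the activity of these factors, was not measured.

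Other immediate-early genes were likewise called in both directions. Of 16 tested, 5 were higher and 6 lower, with a median of -0.05. The shares over all genes were 28.9% and 24.9%. Arc, an activity-induced gene of neurons, was at -2.37 ± 0.31 and Ier5 at -0.71 ± 0.10. Atf3, a stress-induced factor, was at -1.82 ± 0.05 and Ccn1, a secreted matrix protein, at 1.42 ± 0.17. With median centring 1 was higher and 6 were lower, and the median was -0.21.

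Genes known to respond to EGR1 or to KLF2 and KLF4 were called in both directions. In the EGR1 list 2 of 9 were higher and 2 lower, beside 28.9% and 24.9% of all genes. The median was 0.14, or -0.13 with median centring. F3, the tissue factor gene that starts coagulation, was higher at 1.68 ± 0.51 (limma adjusted p = 0.000445) and the membrane protease gene Mmp14 at 0.96 ± 0.17, while Cd44 and Plau were lower at -0.93 ± 0.58 and -0.45 ± 0.15. Of these, F3 alone passed with median centring (adjusted p = 0.0478, against 0.131, 0.0682 and 0.0611), and Plau was also lost without replicate 3 (0.0733). In the list for KLF2 and KLF4, 3 of 9 were higher and 3 lower, beside the same shares of all genes. A higher gene of this list passed the filter through the RapCA channel alone. With both channels required above background, 2 of 8 were higher and 3 lower. The median was 0.07, or -0.02 with median centring. Thbd, the anticoagulant thrombomodulin and a KLF2-induced gene of endothelium, was higher at 2.20 ± 0.34, and the adhesion gene Vcam1, which KLF2 represses there, was higher too at 1.84 ± 0.37. S1pr1, a KLF2-induced receptor, was lower at -1.63 ± 0.12, and Edn1, encoding endothelin 1, at -0.62 ± 0.12 (adjusted p = 0.0506 with median centring).

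The genes with ratios most like those of Egr1 and Nr4a1 were sought by the distance between their 4 array ratios, over 12392 genes. Nearest to Egr1 were Wnt9a, Col27a1 and Creb3l1, at distances of 0.18 to 0.19 log2 units and mean ratios of 1.93 ± 0.31, 1.95 ± 0.26 and 1.90 ± 0.31. Nearest to Nr4a1 were Chrna1, Gla and Slco2a1, at distances of 0.07, 0.09 and 0.11 and mean ratios of -2.12 ± 0.16, -2.10 ± 0.13 and -2.14 ± 0.11. The distance takes in both the mean ratio and its pattern over the arrays.

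**Figure D5:**
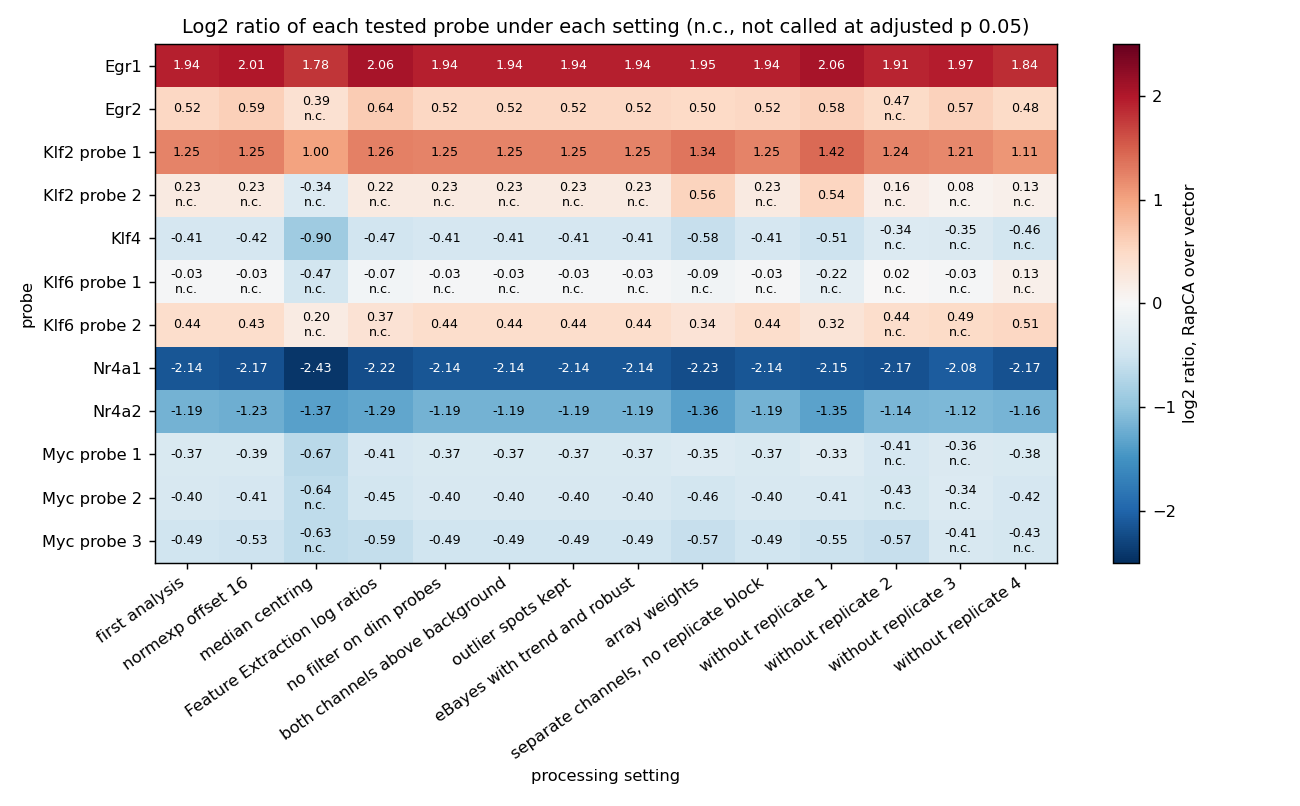
Log2 ratio of each tested probe (rows) in the first analysis and under 13 other settings (columns), with n.c. where the adjusted p was 0.05 or more. Egr1, Nr4a1, Nr4a2 and Klf2 probe 1 are called in every column, and Klf6 probe 1 in none.

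Across settings the 8 tested genes differed in how often they were called. Egr1, Nr4a1, Nr4a2 and the Klf2 probe A_51_P144264 kept their call in all 14 analyses. The calls of Egr2, Klf4, Klf6 and Myc were each lost in at least 2 analyses. Without replicate 1, the array that stood apart, 5 member probes were called higher and 6 lower.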

How the data were processed

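Each two-colour array compared RNA from both vectors. Agilent Feature Extraction made the spot values; its version is 10.7.3.1 in the file headers and 10.9 in the submitters' processing notes. The deposited intensity values are median pixel brightness of each spot and its local background, not normalized, per the file headers. The deposited log10 ratios (Cy5 over Cy3) were background-subtracted and dye-normalized by that software, as the headers record. The deposited series table differed from them by at most 5e-05 over 40929 probes and was not used further.

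Background was corrected with normexp (offset 50), and ratios were fitted by loess array by array, giving control spots no weight. Outlier spots were dropped, and repeat spots averaged per probe. Signals per channel were quantile-scaled on average intensity. No spot was saturated. Tested were 23495 probes that stood well above background in 1 channel or both on each of the 4 arrays, with limma against a ratio of 0, adjusted by Benjamini-Hochberg and called under 0.05. The ± values are SDs over arrays. Accessions gave 64.8% of probes a symbol through a RefSeq table. The array design uses another build, so coordinates are printed for promoters only, on the build of the RefSeq promoter table. Median centring, another offset, the scanner software's ratios, filters, outlier spots, variance models, array weights, unpaired channels and each array left out were tried. The members and lists were chosen with earlier results of these data known. Some genes, such as Rxra, Mxd3 and Max, are named for their role. Otherwise named are all members, Rap1a, up to 4 genes of each list with the smallest p, and the 3 genes nearest to the highest and the lowest member. A gene that this rule names is not reported here. The scripts were tested on simulated data. The fits used limma 3.58.1 in R 4.3.3, with statmod 1.5.0, and files were read with the data.table package, version 1.17.8, with Python 3.11.15, pandas 2.3.3 and matplotlib 3.10.9 for figures.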

Additional observations from a re-analysis of the deposited data

Results flagged for a closer look

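Replicate 1 lay apart from the other 3 arrays for 2 member probes. The Klf2 probe A_52_P442031 had a ratio of -0.705 there against 0.44 to 0.66 on the others, and Nr4a2 had -0.725 against -1.40 to -1.29. F3 had 2.441 on replicate 1 against 1.37 to 1.49. Chrna1 had -2.348 on replicate 3 against -2.06 to -2.01. Each was picked out because the gap to the nearest array exceeded Dixon's critical value of 0.829 of the range. Of 55 ratios examined 4 were picked out, and chance picks out about 5% of groups. Among 23495 probes tested 11.2% were picked out, 2182 of 2635 for replicate 1. The reason for the difference of that array was not tested.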

How the results depend on the processing

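Egr1, Nr4a1, Nr4a2 and the Klf2 probe A_51_P144264 kept direction and call under all 13 alternatives. With median centring 2 member probes were called higher, where the first analysis had 4, and 6542 probes in all, of which 40.1% were higher against 53.3%, while the median of all probes moved from 0.01 to -0.14. Of the related genes 51 were called there, against 81. Array weights called 17939 probes, against 11650. Leaving out 1 array gave 2 (without replicate 2) to 5 (without replicate 1) member probes called higher and 2 (without replicate 3) to 6 lower, 7901 (without replicate 3) to 15738 (without replicate 1) probes in all, and 59 to 101 related genes; without replicate 2, 3 probes were called lower and 7990 in all. The Klf2 probe A_52_P442031 turned to -0.335 with median centring, and the Klf6 probe A_51_P451346 to 0.016 without replicate 2 and 0.133 without replicate 4 (range -0.223 to 0.133 over the arrays left out). The cause was not tested. For the unpaired fit of separate channels (no replicate block), 10253 probes were called and the member counts were as in the first analysis, 4 and 6. Egr3 and Nr4a3, dim in both channels, were at 0.745 and -1.425 by the ratios of the scanner software. With no filter on dim probes Nr4a3 passed (adjusted p = 0.0313). Dim signal limits both genes, and 4 arrays of 1 dye orientation limit all.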

Other observations

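Before normalization the net signals of some called members overlapped between the channels. The net signal of Klf4 did not and was 11419 to 16149 in the RapCA channel and 18723 to 39396 in the vector channel. That of Egr2 overlapped, at 297 to 369 in the RapCA channel and 146 to 431 in the vector channel, so its channels were apart only after normalization. The same held for the Klf6 probe A_51_P503162, at 2953 to 3961 against 1378 to 4994, and for the Myc probe A_52_P278549, at 209 to 356 against 279 to 757. Egr1 was apart before it, at 1463 to 1828 against 373 to 719, and so was Nr4a1, at 1634 to 2502 against 9401 to 17394.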
